A study of Mus musculus with 3 samples.

Results

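The transcription factor p53 and 9 of its target genes were followed across 3 one-colour microarrays. The 10 genes were taken by symbol: every probe that is not a control and whose RefSeq accession belongs to Trp53, Cdkn1a, Mdm2, Ccng1, Gdf15, Sesn1, Zmat3, Phlda3, Trp53inp1 or Perp was kept, whatever its signal. All 10 were on the array, out of 20886 genes named there, through 12 probes: Cdkn1a and Trp53inp1 had 2 probes each and the other 8 genes had 1. All 12 probes were well above background on all 3 arrays.

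The RNA came from primary cells that the labels call endothelial cells of the cavernous tissue of the penis of C57BL/6 mice (MCECs), with no genetic change named. All cultures were kept in a serum-containing medium with heparin and vascular endothelial growth factor A. One group was held in 5 mmol glucose (normal glucose), 1 in 30 mmol glucose (high glucose) and 1 in 30 mmol glucose with DKK2, a secreted modulator of Wnt signalling, each for 48 h. The RNA of 3 samples was pooled before hybridisation, so each condition was 1 array, no spread between cultures could be measured and no p-value is given. The sources used here state neither the dose of DKK2 nor the age of the mice.

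In unstressed cells p53 is made and quickly destroyed, because the ubiquitin ligase MDM2 marks it for the proteasome. DNA damage and other stresses stop this destruction, p53 accumulates as a protein and it then binds DNA and switches on genes that halt the cell cycle, restrain growth signalling, alter RNA handling or promote cell death. Since MDM2 is itself encoded by a target gene, the response feeds back on itself, and since p53 is controlled mainly as a protein, the level of Trp53 RNA is not a measure of p53 activity.

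p53 binds a pair of adjoining half-sites, each made of 3 purines, a C, 2 bases that are A or T, a G and 3 pyrimidines. This p53 consensus reads the same on both strands. It was searched in the RefSeq promoter windows of GRCm38.p6, which run from 250 bases before to 50 bases after an annotated start; 7 of the 10 genes were matched there, through 10 windows (not Zmat3, Trp53inp1 and Perp). A full site of 20 bases with at most 1 mismatch was found in 2 of those 10 windows, that of Ccng1 and 1 of the 2 of Cdkn1a, against 0.067% of all 32851 windows. Both are shown because they place the 2 best matches among these genes; each sequence is the 250 bases before the start, in the direction of the gene, with the match in capitals. The Cdkn1a stretch is chr17:29090729-29090978 on the + strand, and the Ccng1 stretch is chr11:40755287-40755536 on the - strand.

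Cdkn1a: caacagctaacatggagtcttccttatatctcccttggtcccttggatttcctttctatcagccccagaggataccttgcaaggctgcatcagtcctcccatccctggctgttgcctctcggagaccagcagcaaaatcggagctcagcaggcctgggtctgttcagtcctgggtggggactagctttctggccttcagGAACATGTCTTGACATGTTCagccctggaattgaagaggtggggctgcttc

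Ccng1: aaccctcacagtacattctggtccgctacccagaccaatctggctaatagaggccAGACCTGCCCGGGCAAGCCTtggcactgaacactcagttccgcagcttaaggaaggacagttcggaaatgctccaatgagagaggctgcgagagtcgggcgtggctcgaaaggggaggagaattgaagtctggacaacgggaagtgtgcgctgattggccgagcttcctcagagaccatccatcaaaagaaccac

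The match lies 51 to 32 bases before the start of Cdkn1a and 195 to 176 bases before that of Ccng1. Looser matches were more common. A full site with up to 3 mismatches was in the windows of 4 of the genes, adding Trp53 and Sesn1, and in 1.38% of all windows. A single half-site with no mismatch was in 5 of the 10 windows, including that of Mdm2, and in 8.36% of all windows. The Cdkn1a stretch above also holds a half-site with no mismatch, 73 to 64 bases before the start. The looser matches of the other 3 genes are shown with up to 20 bases on each side, again with the match in capitals: Sesn1 at chr10:41887246-41887305 (+), Mdm2 at chr10:117710915-117710964 (-) and Trp53 at chr11:69580264-69580323 (+).

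Sesn1: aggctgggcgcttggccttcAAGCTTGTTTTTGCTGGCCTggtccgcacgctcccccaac

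Mdm2: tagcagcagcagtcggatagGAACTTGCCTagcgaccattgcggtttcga

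Trp53: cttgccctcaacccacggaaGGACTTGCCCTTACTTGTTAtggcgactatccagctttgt

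A match is only a description of the letters. No binding was measured, and the windows of Gdf15 and Phlda3 held none of these matches in the 300 bases searched. The windows are short, so sites farther away or inside a gene were not searched.

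Signals below are the scanner's processed signal, a linear intensity. The 3 arrays differed in brightness: in normal glucose 75% of spots lay under a signal of 1279.3, in high glucose under 2571.4 and on the DKK2 array under 2675.7. Each array was therefore scaled to this value, its own 75th percentile, and a difference is the log2 of the scaled signal on one array minus that on the other, so that 1 is a doubling. The technical error of such a difference from the scanner's error model was an SD of 0.20 for each of the 12 probes and does not include variation between cultures. It was the same at signals from 512.3 to 191449.4 and is a value of that model, not a spread measured here. Variation between arrays of 1 condition could not be measured either. Repeated spots of a probe on 1 array had a median log2 SD of 0.069 to 0.08. "Higher" and "lower" in counts mean at least 2-fold. In bulk RNA, fewer cells of a type and less RNA per cell cannot be told apart.

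Trp53, the gene of p53 itself, had a signal of 1035.8 under normal glucose, 591.7 under high glucose and 999.2 with added DKK2. After scaling it was highest in normal glucose and lowest in high glucose, with DKK2 in between. The log2 difference of high against normal glucose was -1.82, a scaled level of 0.284 times, and that of DKK2 against high glucose was 0.70. With DKK2 it was still at -1.12 against normal glucose. One probe reads the gene, so no second probe could be set beside it.

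Mdm2, the gene of the ubiquitin ligase that destroys p53, had a signal of 46870.6 under normal glucose, 87751.1 under high glucose and 191449.4 with added DKK2. The first step was no larger than the difference in brightness of the arrays, and the log2 difference of high against normal glucose, -0.10, was within the technical error. With DKK2 the level was 2.10 times that in high glucose (log2 difference 1.07), and 0.97 on the log2 scale against normal glucose. The DKK2 difference lies at the 2-fold bound: it was 0.99 with quantile normalization and 0.97 with cyclic loess.

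Cdkn1a encodes p21, which inhibits cyclin-dependent kinases and halts the cell cycle. Its 2 probes disagreed. The probe of NM_007669 was spotted 10 times per array: its spots had a lowest, median and highest signal of 28396.5, 29335.4 and 30935.9 under normal glucose, 26808.3, 28254.6 and 30691.1 under high glucose, and 34760.5, 36794.5 and 39194.9 with added DKK2. Before scaling, the spots with DKK2 lay above all those of both other arrays, whose own ranges overlapped; after it, the normal glucose array was the highest. The probe of NM_001111099, a second transcript of the gene, had a signal of 512.3 under normal glucose, 1777.8 under high glucose and 3146.0 with added DKK2, each array above the one before. After scaling, high against normal glucose was at -1.06 for the first probe and 0.79 for the second, and DKK2 against normal glucose at -0.75 and 1.55. Both probes lay above 0 for DKK2 against high glucose, at 0.32 and 0.77. With opposite signs on 2 probes, no direction is given for Cdkn1a between high and normal glucose. The tables used here do not pair the 2 annotated starts with the transcripts, so the p53 site shown above is not assigned to either probe.

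**Figure D1:**
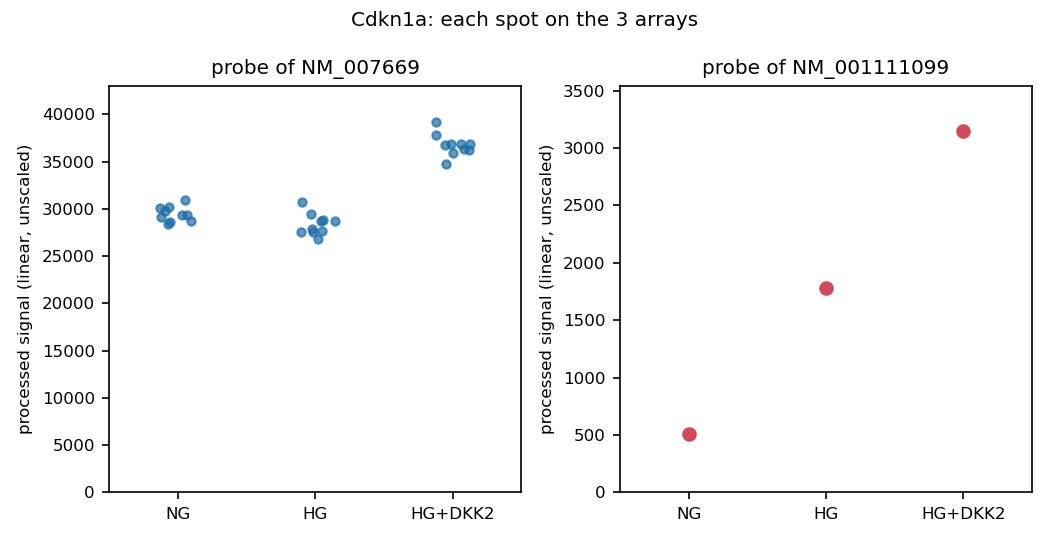
Processed signal of Cdkn1a before scaling (linear axis from 0) for each spot of its 2 probes, in normal glucose (NG), high glucose (HG) and high glucose with DKK2 (HG+DKK2). The 10 spots of the NM_007669 probe lie between 26808.3 and 39194.9, while the single spot of the NM_001111099 probe lies at 512.3 in normal glucose and at 3146.0 with DKK2.

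Ccng1 encodes cyclin G1, which acts with a protein phosphatase on MDM2. Its signal was 12122.5 under normal glucose, 43258.4 under high glucose and 52636.4 with added DKK2. Both high glucose arrays were above normal glucose after scaling, by log2 differences of 0.83 and, with DKK2, 1.05 (2.08-fold). DKK2 against high glucose was at 0.23, close to the technical error. The difference of 1.05 fell to 0.91 with quantile normalization and with cyclic loess, below 2-fold.

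Gdf15 encodes a secreted stress cytokine of the TGF-beta superfamily. Its signal was 2924.6 under normal glucose, 6021.2 under high glucose and 32455.1 with added DKK2. After scaling, both arrays without DKK2 were level, with a log2 difference of 0.03, and the DKK2 array stood apart from both. It was 5.18-fold higher than high glucose (log2 difference 2.37) and 5.31-fold higher than normal glucose (2.41). Over the processing alternatives these differences ranged from 2.31 to 2.41 and from 2.30 to 2.47.

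Sesn1 encodes sestrin 1, which restrains growth signalling through mTORC1. Its signal was 5203.1 under normal glucose, 9217.9 under high glucose and 5352.0 with added DKK2. High against normal glucose was at -0.18, within the technical error. DKK2 against high glucose was at -0.84, and DKK2 against normal glucose at -1.02, just past 2-fold (-0.90 with normexp, another correction for background, -0.96 with median scaling and -0.97 in the authors' deposited table, all short of it). Sesn1 was the only one of the 10 genes below 0 between DKK2 and high glucose.

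Trp53inp1 encodes a stress protein that acts with p53 and in autophagy. Its brighter probe had signals of 12595.4, 25760.5 and 37679.3 in normal glucose, high glucose and DKK2, and its dimmer probe 606.4, 1607.3 and 3755.2. Both probes were highest with DKK2, but by different amounts. High against normal glucose was at 0.03 and 0.40, DKK2 against high glucose at 0.49 and 1.17, and DKK2 against normal glucose at 0.52 and 1.57. The brighter probe, which stands for the gene in the counts, was below 2-fold in all 3 comparisons.

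Zmat3 encodes a zinc finger protein that binds RNA and affects its splicing and stability. Its signal was 4682.4 under normal glucose, 13448.7 under high glucose and 16218.6 with added DKK2. The log2 differences were 0.51 for high against normal glucose, 0.21 for DKK2 against high glucose and 0.73 for DKK2 against normal glucose, so most of the distance lay between the glucose conditions.

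Phlda3, whose product holds back the survival kinase AKT at the membrane, had signals of 87442.2 under normal glucose, 118385.9 under high glucose and 138233.6 with added DKK2. The unscaled signal rose less than the brightness of the arrays. High against normal glucose was at -0.57 and DKK2 against normal glucose at -0.40, while DKK2 against high glucose, 0.17, was within the technical error.

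Perp encodes a membrane protein of desmosomes that also takes part in p53-dependent cell death. Its signal was 5954.2 under normal glucose, 15775.8 under high glucose and 22593.7 with added DKK2. The log2 differences were 0.40, 0.46 and, against normal glucose, 0.86, each short of 2-fold.

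**Figure D2:**
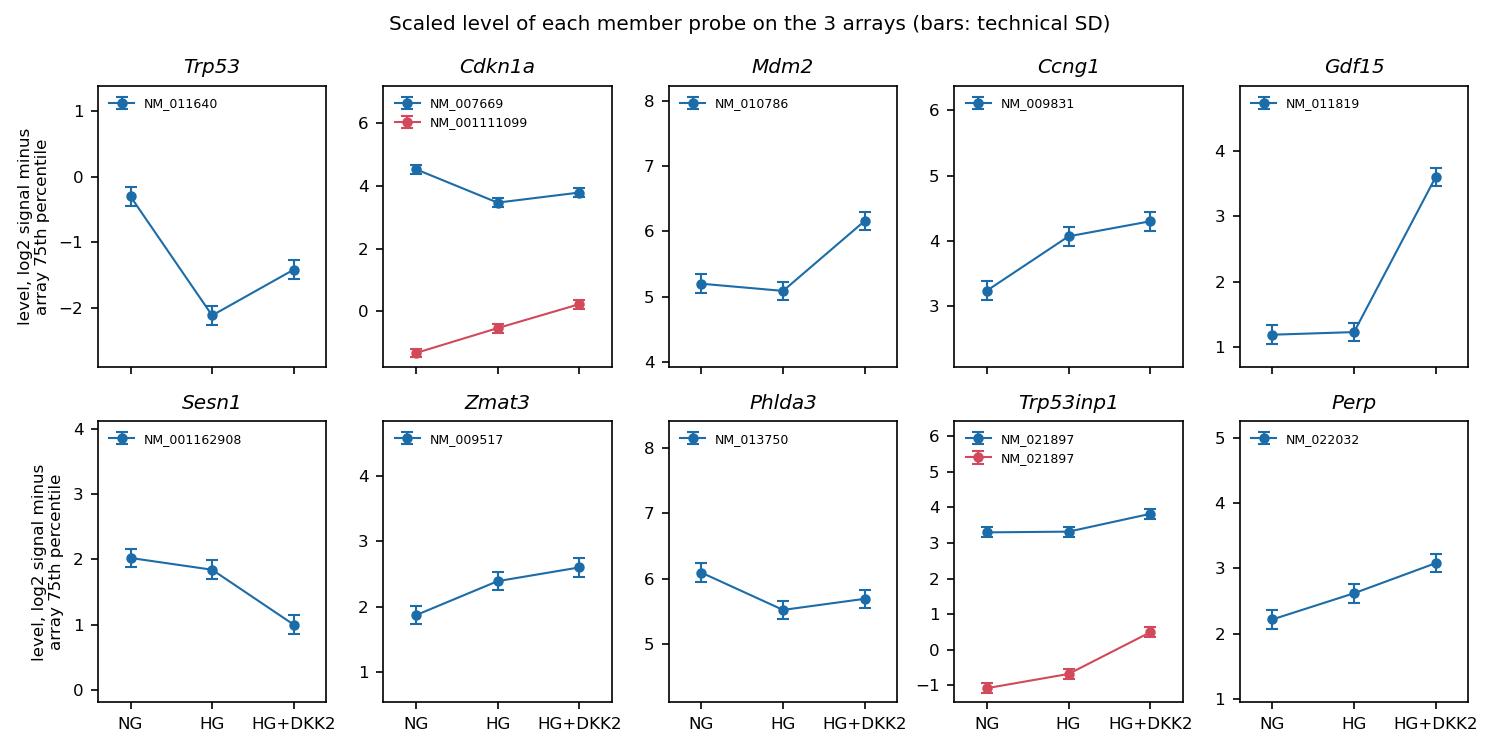
Scaled level of each probe of the 10 genes (log2 of the processed signal minus the array's 75th percentile) in normal glucose (NG), high glucose (HG) and high glucose with DKK2 (HG+DKK2), with bars for the technical SD of the scanner's error model and a colour for each probe of a gene. Trp53 is lowest in high glucose, Gdf15 stands apart only with DKK2 and the 2 probes of Cdkn1a part from each other; the axes of the panels differ.

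Between both glucose conditions the question is what high glucose changed. Of the 10 genes, 0 were higher and 2 were lower, Trp53 at -1.82 and Cdkn1a, by its brighter probe, at -1.06 (-0.95 with normexp background correction, short of 2-fold). The share of all 16771 measured genes that was higher came to 2.44%, and the lower share to 5.94%. The median of the 10 was -0.04, beside 0.07 for all genes, with 5 above 0 and 5 below. Of the 10, 4 (Mdm2, Gdf15, Sesn1 and Trp53inp1) were within 1 technical SD of 0. Gdf15 and Trp53inp1 changed sign with quantile normalization and with cyclic loess. Probes of 1 gene often disagreed in this comparison: where a gene past 2-fold had more than 1 probe, the signs of its probes conflicted in 98 of 299 cases (32.8%), Cdkn1a among them.

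Within high glucose the question is what DKK2 changed. Gdf15 at 2.37 and Mdm2 at 1.07 were higher, and 0 of the 10 were lower. The shares of all 17825 genes were 4.73% higher and 5.13% lower. The median of the 10 was 0.39, beside 0.04 for all genes, and 9 of the 10 were above 0. Of those 9, Cdkn1a (0.32), Ccng1 (0.23), Zmat3 (0.21) and Phlda3 (0.17) lay within 2 technical SDs of 0. Trp53 was at 0.70.

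The DKK2 array was last set against the normal glucose array, so this comparison shares an array with each of the others. Gdf15 at 2.41 and Ccng1 at 1.05 were higher, and Trp53 at -1.12 and Sesn1 at -1.02 were lower. The shares of all 16676 genes were larger here, 9.39% higher and 11.2% lower. With normexp 3 of the 10 were higher and 0 lower, beside 4.86% and 25.4% of all genes. Trp53 (-1.0 after rounding) and Sesn1 (-0.90) then lay just short of 2-fold, and Mdm2 passed it at 1.05. Mdm2 also passed it with median scaling and in the authors' deposited table, at 1.02 in each. The median of the 10 was 0.62, beside 0.06 for all genes, with 6 above 0. By the brightest probe of each gene, 6 of the 10 genes (Mdm2, Ccng1, Gdf15, Zmat3, Trp53inp1 and Perp) had their highest level on the DKK2 array, 4 (Trp53, Cdkn1a, Sesn1 and Phlda3) in normal glucose and 0 in high glucose. The dimmer probe of Cdkn1a was instead highest with DKK2, at 1.55 against normal glucose. Of the 16653 genes above background on all arrays, 40.2% were highest with DKK2, 34.4% in normal glucose and 25.4% in high glucose.

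**Figure D3:**
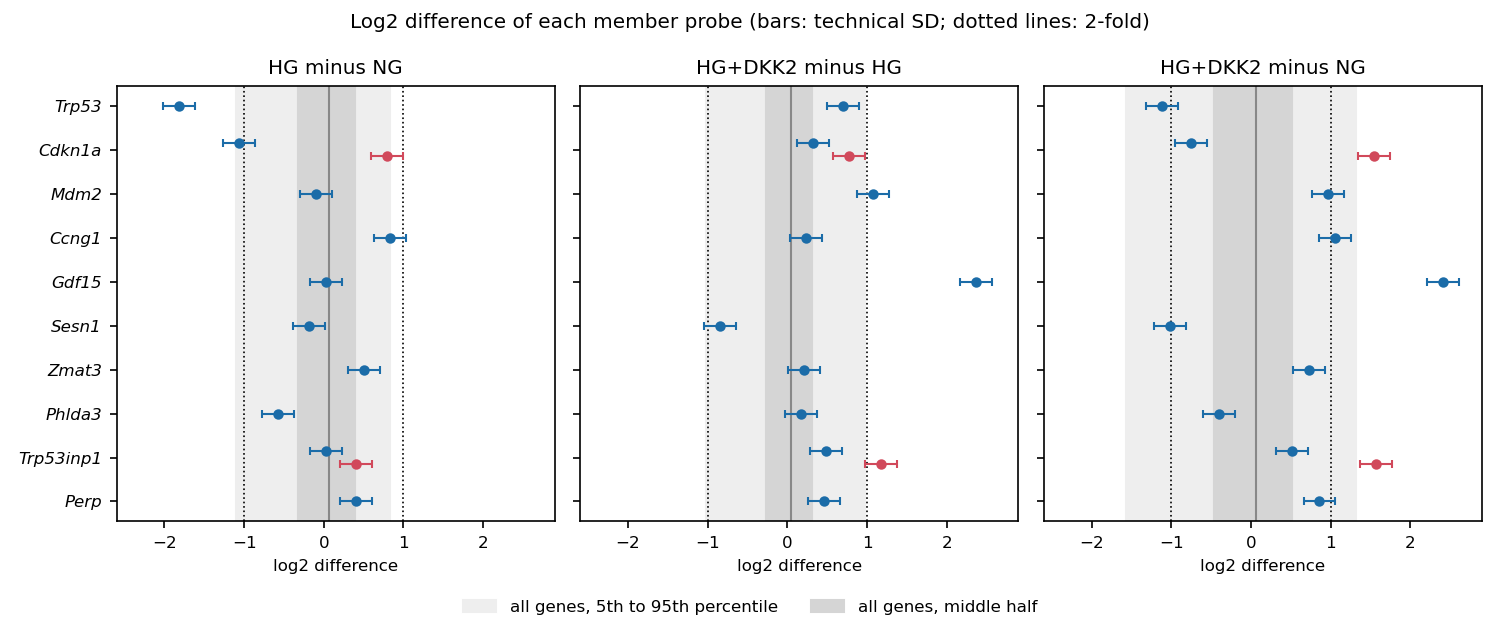
Log2 difference of each probe of the 10 genes in the 3 comparisons of high glucose (HG), high glucose with DKK2 (HG+DKK2) and normal glucose (NG), with bars for the technical SD, a wide and a narrow grey band for the spread of all genes measured and dotted lines at 2-fold. Gdf15 lies far outside the wide band in both comparisons with DKK2, and Trp53 lies outside it between high and normal glucose. Mdm2 (1.07) lies outside it between DKK2 and high glucose. The dimmer probe of Cdkn1a (1.55) does so between DKK2 and normal glucose, and that of Trp53inp1 in both comparisons with DKK2 (1.17 and 1.57). Most other points lie inside the wide band, many of them outside the narrow one.

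A wider set of 90 p53 pathway genes in 5 lists was read in the same way. Between high and normal glucose 2 of 89 measured genes were higher and 9 lower (median -0.01), beside 2.44% and 5.94% of all genes. With normexp 0 were higher and 11 lower, while 24.1% of all genes were then lower. With DKK2 against high glucose 13 of 90 were higher and 1 lower (median 0.24), beside 4.73% and 5.13% of all genes. Against normal glucose 15 of 89 were higher and 4 lower (median 0.24), beside 9.39% and 11.2%. With normexp 10 were higher and 7 lower there, beside 4.86% and 25.4% of all genes. Most of the higher genes came from 1 list, described last.

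Regulators of p53, 24 genes, were near the median of all genes. In high against normal glucose 0 were higher and 2 lower (median 0.11), beside 2.44% and 5.94% of all genes. With DKK2 against high glucose the counts were 0 and 0 (median 0.07), beside 4.73% and 5.13%. With DKK2 against normal glucose they were 2 and 1 (median 0.20), beside 9.39% and 11.2%. Ep300, which encodes an acetyltransferase that serves as a p53 coactivator, had signals of 1391.2, 1070.4 and 951.4 in normal glucose, high glucose and DKK2 and was at -1.39 in high and at -1.61 with DKK2 against normal glucose. Mdm4, the gene of the MDM2 partner that also inhibits p53, was at -1.32 in high against normal glucose by its brighter probe (-0.65 as the mean of its probes, which lay on both sides of 0) and at 0.47 with DKK2 against high glucose. Cdkn2a, which encodes the MDM2 inhibitor ARF and the kinase inhibitor p16, was at -0.64 and -0.10 in those comparisons by its brighter probe. As the mean of its 2 probes, both below 0, Cdkn2a was at -1.11 and -0.51. By brighter probe, Trp63 and Trp73, the genes of the related factors p63 and p73, were at -0.76 and -0.23 in high against normal glucose. With DKK2 against high glucose they were at 0.08 and 0.21. Probes of Trp63 differed in sign in both comparisons and those of Trp73 in the second. As the mean of its probes Trp63 was at -0.0 (after rounding) and -1.19 in those comparisons, and Trp73 at -0.46 and -0.06.

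Other growth arrest targets, 14 genes, had a median of -0.25 in high against normal glucose. There 0 were higher and 2 lower, beside 2.44% and 5.94% of all genes. With DKK2 against high glucose the median was 0.40, with 2 higher and 0 lower, beside 4.73% and 5.13%. Btg2, an antiproliferative gene, had signals of 5177.6 in normal and 4503.9 in high glucose and was at -1.21. With DKK2, Ddit4, whose product restrains mTORC1, was at 1.11, with signals of 24675.8 in high glucose and 55566.3 with DKK2. Ckap2, a gene of the mitotic spindle, was at 1.60, and at 2.36 against normal glucose. In that last comparison 1 gene of the list was higher and 1 lower (median 0.18), beside 9.39% and 11.2% of all genes. The lower one was Rprm, the gene of the arrest protein reprimo, at -1.27.

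Cell death targets, 15 genes, had 0 higher and 0 lower in high against normal glucose (median -0.11), beside 2.44% and 5.94% of all genes. With DKK2 against high glucose 2 were higher and 0 lower (median 0.12), beside 4.73% and 5.13%. Pmaip1, which encodes the BH3-only protein NOXA, had signals of 7140.7, 10327.3 and 26637.9 in normal glucose, high glucose and DKK2, and was at 1.31 with DKK2 against high glucose. Tnfrsf23, a decoy receptor gene of the TRAIL system, was at 1.66 there and at 1.89 against normal glucose. In the latter it was the 1 higher gene of the list, with 0 lower (median 0.12), beside 9.39% and 11.2% of all genes. Bax, the gene of a pore-forming death protein, had signals of 14526.2, 28222.0 and 38615.9 and was at -0.05, 0.40 and, against normal glucose, 0.35.

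Repair, metabolism and transport targets, 18 genes, had 0 higher and 5 lower in high against normal glucose (median -0.23). Of all genes, 2.44% were higher there and 5.94% lower. Pltp, which encodes a phospholipid transfer protein, was at -1.93, the receptor kinase gene Epha2 at -1.35, the phosphatase gene Ptp4a3 at -1.35 and Ass1, of arginine synthesis, at -1.29. With DKK2 against high glucose 2 were higher and 1 lower (median -0.13), beside 4.73% and 5.13% of all genes. Ptp4a3 was at 1.02, Tigar, whose product lowers glycolytic flux, at 1.01 and Pltp at -1.26. Against normal glucose 0 were higher and 2 lower (median -0.31), beside 9.39% and 11.2%. Those 2 were Pltp at -3.19 and Epha2 at -1.35.

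The list that stood highest was that of 19 cell cycle genes that p53 represses through p21 and the DREAM complex. With DKK2 against high glucose all 19 were above 0, 7 were higher and 0 lower (median 0.90), beside 4.73% and 5.13% of all genes. With normexp 5 were higher and 0 lower, beside 2.64% and 2.87%. Aurka was at 1.63, Ccnb2 at 1.60, Cdc20 at 1.36 and Birc5 at 1.19. Against normal glucose the median was 1.09, and 11 of 18 were higher and 0 lower, beside 9.39% and 11.2% of all genes. Ccnb2 was at 2.37, Aurka and Birc5 at 1.77, and Top2a at 1.62 (1.02 with normexp). With normexp 8 were higher and 1 lower, beside 4.86% and 25.4% of all genes. Between high and normal glucose 2 of 18 were higher and 0 lower (median 0.13), beside 2.44% and 5.94% of all genes. With normexp 0 were higher and 2 lower, beside 0.955% and 24.1%. The 2 higher genes, the cyclin gene Ccne2 and the phosphatase gene Cdc25c, turned from 1.04 to -1.33 and from 1.29 to -1.09 with normexp, and their signals in normal glucose were only 10.1 and 12.3.

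**Figure D4:**
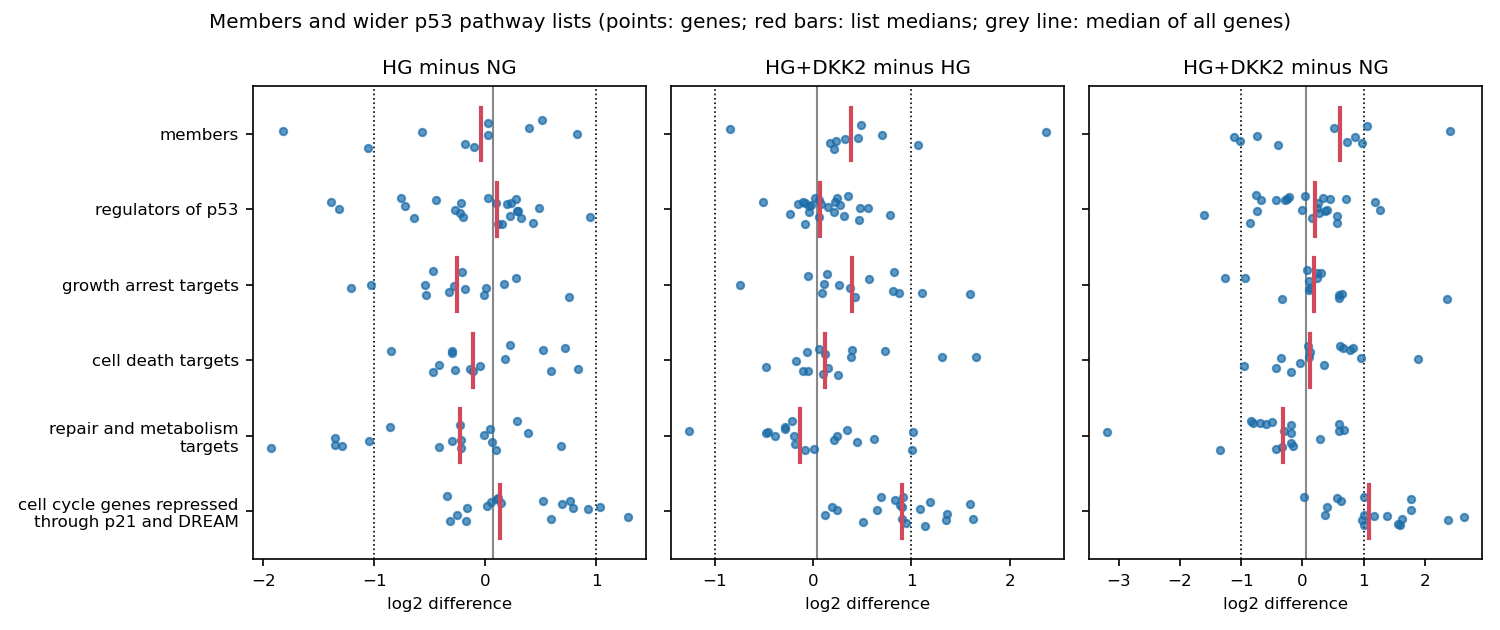
Log2 difference of each measured gene of the 10 members and of the 5 wider p53 pathway lists in the 3 comparisons (HG, high glucose; NG, normal glucose), with a red bar at each list's median, a grey line at the median of all genes and dotted lines at 2-fold. The cell cycle list is centred on 0.90 and 1.09 in the comparisons with DKK2, and the other lists lie nearer to the median of all genes.

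Cell type markers also differed between the arrays. The counts below stand beside shares of all genes of 4.73% higher and 5.13% lower with DKK2 against high glucose. Against normal glucose these shares were 9.39% and 11.2%. Of 10 macrophage and leukocyte markers found on the array, 6 were higher and 0 lower with DKK2 against high glucose (median 1.57), and likewise 6 and 0 with DKK2 against normal glucose (median 1.96). All 10 were above background on each array, and their summed level, in multiples of the array's 75th percentile, was 25.57 under normal glucose, 17.56 under high glucose and 23.10 with added DKK2. Most of that sum was Itgam, at 23.01, 14.54 and 14.56, whose 3 probes differed in sign; without it, a sum taken after the values were seen, the levels were 2.56, 3.02 and 8.54. With DKK2 against high glucose, 0 of 11 fibroblast markers were higher and 3 lower (median -0.57). Their summed levels on the 3 arrays were 547.92, 495.03 and 352.37. In the same comparison, 0 of 10 smooth muscle and pericyte markers were higher and 1 lower (median -0.54). Their summed levels were 82.38, 50.16 and 30.26. Of 16 endothelial markers, 14, 16 and 15 were above background in normal glucose, high glucose and DKK2, with Emcn and Erg below it in normal glucose and Erg with DKK2; their summed levels were 6.59, 8.11 and 8.56, of which Kdr made up 2.85, 3.55 and 4.07. Between high and normal glucose 5 of 14 measured were higher and 0 lower, beside 2.44% and 5.94% of all genes. Icam2 at 2.54, Robo4 at 2.24 and Cldn5 at 1.53 were among those 5. With normexp 0 were higher and 1 lower there, beside 0.955% and 24.1% of all genes. With DKK2 against normal glucose 3 of 14 were higher and 0 lower (1 and 3 with normexp). With DKK2 against high glucose 0 of 15 measured were higher and 4 lower (median -0.27), while 7 were above 0. The 4 were Robo4 at -1.63, Cldn5 at -1.28, Icam2 at -1.24 and Tek at -1.17. With normexp 1 was lower, beside 2.87% of all genes. In that comparison without normexp, 0 of 6 adipocyte markers were higher and 3 lower (median -0.97). Of 7 skeletal muscle markers 6 were measured, likewise with 0 higher and 3 lower (median -1.10). Of 6 epithelial markers, 3 were above background under normal glucose, 4 under high glucose and 6 with added DKK2. With DKK2 against high glucose 4 were measured, of which 1 was higher (Krt18 at 3.82) and 1 lower (Epcam at -1.29). The Epcam signals were only 23.2 in high glucose and 9.8 with DKK2, and Epcam was at -0.21 with normexp. The summed epithelial levels were 0.26, 0.27 and 1.84, of which Krt18 made up 0.06, 0.11 and 1.57. The part of these cell type differences in the results for p53 and its targets was not tested.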

How the data were processed

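Cy3-labelled RNA was read on 3 Agilent arrays, 1 per condition, and titles gave the groups. The authors' files come, per the file headers, from Feature Extraction 11.5.1.1 and hold processed signal intensity per spot, corrected for background. The deposited value table holds the same intensity: at least 99.8% of its values in each array equal the spot means within a fraction of 0.001. Array slot and condition cannot be told apart.

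Control spots (1377 of 44397) and 110 to 136 outlier spots per array were left out; 0 spots were saturated. Levels were log2 signal minus the array's 75th percentile, averaged over spots. A probe counted as above background if the scanner flagged 50% or more of its spots so. Accessions were matched to RefSeq (GRCm38.p6, names only; the array design uses mm9): 27508 of 39429 probes got 1 symbol and 11921 none, so further probes of these genes may be unnamed here. A gene's value is that of its brightest probe.

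The 10 genes and the lists were chosen with earlier results of these data known. All 10 are described; from the wider lists, per comparison, up to 4 genes at least 2-fold apart also with normexp and with no probe of opposite sign, plus Mdm4, Trp63, Trp73, Cdkn2a, Bax and Pmaip1. Normexp used the median signal. The counting was tested on simulated data. Tools were R 4.3.3, limma 3.58.1, Python 3.11.15, numpy 2.4.6 and pandas 2.3.3.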

Additional observations from a re-analysis of the deposited data

How the results depend on the processing

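No paired analysis was possible because each condition is 1 array. Differences were recomputed from the deposited table, with normexp background correction (offset 50), with 3 other scalings (quantile, cyclic loess, median), as a mean over a gene's probes, and with the filter on dim probes left out or raised to a signal of 100. Counts were also made at 1.5-fold and 3-fold. Of 80 recomputed differences of the 10 genes per comparison, 79, 78 and 78 moved by no more than the technical SD (high against normal glucose, DKK2 against high glucose, DKK2 against normal glucose). Many of them could not move. All 12 probes passed both filters on dim probes, the mean over probes changes nothing for the 8 genes with 1 probe, and the deposited table holds the same intensities. Those that did move came from the mean over probes of Cdkn1a and Trp53inp1, the genes with 2 probes. No difference past 2-fold changed sign. The mean over probes moved Cdkn1a from -1.06 to -0.14 in high against normal glucose and from -0.75 to 0.40 in DKK2 against normal glucose, because its probes disagree.

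Counts past 2-fold among the 10 genes moved as follows. In high against normal glucose, 2 became 1 with normexp, median scaling, the mean over probes and the 3-fold rule, and 3 with the 1.5-fold rule. In DKK2 against high glucose, 2 became 1 with quantile normalization, cyclic loess and the 3-fold rule, and 4 with the 1.5-fold rule. In DKK2 against normal glucose, 4 (2 higher, 2 lower) became 3 with normexp (3 and 0), quantile normalization and cyclic loess (1 and 2 each), 5 with the mean over probes, 8 with the 1.5-fold rule and 1 with the 3-fold rule; with median scaling and the deposited table the 4 were 3 higher and 1 lower. Among the 90 wider pathway genes, 11, 14 and 19 past 2-fold became 27, 29 and 44 with the 1.5-fold rule and 1, 4 and 10 with the 3-fold rule. For both sets of counts, the shares of all genes at 1.5-fold were 13.1%, 11.9% and 21.7% higher and 14.3%, 12.1% and 20.9% lower. At 3-fold they were 0.584%, 1.5% and 3.17% higher and 1.97%, 1.91% and 4.88% lower. Normexp moved the median of all genes by -0.34 and -0.36 in the comparisons with normal glucose. Of all genes, 24.1% were then lower in high glucose and 25.4% with DKK2. The 10 genes did not shift with that median: their own median was 0.04 and 0.70 with normexp in those comparisons. All 12 of their probes were bright, with signals of at least 512.3 in normal glucose, where the median probe was at 101.8. Whether other genes as bright shifted was not counted, so this is not shown to be particular to the 10 genes.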
